A study of Caenorhabditis elegans with 6 samples.

Results

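The 10 innexin genes described here were taken by name from the 46904 genes of the deposited table. They are *inx-8* and *inx-9*, which act in the gonadal sheath, *inx-14*, *inx-21* and *inx-22*, which act in the germ cells that the sheath contacts, and 5 further members, *inx-3*, *inx-7*, *inx-10*, *inx-12* and *inx-13*. Ribosome-bound RNA was measured in 6 libraries of young adult *Caenorhabditis elegans* of strain CLP1481 grown at 20 °C. For 3 libraries the animals spent 6 h on bacterial lawns with antimycin A at 4.5 µM, a drug that blocks complex III of the respiratory chain, and for the other 3 they spent 6 h on lawns with ethanol (EtOH), the vehicle. All animals, in both groups, carried the transgene array twnEx675, with 2 parts: Ptbh-1::rpl-22::3xHA, in which the promoter of *tbh-1* (tyramine beta-hydroxylase) drives a ribosomal protein with 3 HA tags, and Pgcy-8::gfp, in which the promoter of *gcy-8* drives GFP. Ribosomes that carried the tag were immunoprecipitated, so the values stand for RNA on those ribosomes together with any RNA carried through. Each of 3 independent experiments gave 1 library per group.

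Innexins are the gap junction proteins of invertebrates. Their subunits form hemichannels, and hemichannels of neighbouring cells dock into channels that pass small molecules and ions. In the *C. elegans* gonad, sheath hemichannels of INX-8 and INX-9 dock with germline hemichannels that contain INX-14 together with INX-21 or INX-22. Channels with INX-21 are needed for germ cell proliferation, and channels with INX-22 take part in holding oocytes before meiotic maturation. *tbh-1* is known to be expressed in the RIC interneurons and in the gonadal sheath cells, so the promoter that drives the tag is not limited to neurons, although the labels name *tbh-1* expressing neurons as the cell type.

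Values are TPM, a relative abundance that is corrected for gene length, so levels of different genes can be set side by side. TPM keep no read counts, the depth of each library is unknown, and no counting interval can be given. At 1 TPM or more there were 10573 to 11608 genes in the antimycin A libraries and 9951 to 11046 in the EtOH libraries. All 10 members were at 1 TPM or more in all 6 libraries and passed the filter on low values (1 TPM in at least 3 libraries), as did 11099 genes of the table. *tbh-1* read 1455 to 2683 TPM in antimycin A and 1592 to 1722 TPM in EtOH, and *rpl-22*, which is also part of the transgene, 2211 to 4837 TPM and 2470.1 to 4431 TPM. Of 9 neuron markers, *snb-1* (synaptobrevin) was the highest, at 194 to 457 TPM in antimycin A and 88.3 to 260.3 TPM in EtOH, and *unc-31* was below 1 TPM in every library. Of the other genes of octopamine and tyramine cells, the tyrosine decarboxylase gene *tdc-1* read 11.6 to 22.3 TPM in antimycin A and 8.33 to 23.6 TPM in EtOH, and the vesicular transporter gene *cat-1* 1.59 to 3.57 TPM and 1.01 to 1.76 TPM. The sheath innexin *inx-8* was above *tbh-1* and above all 9 neuron markers in every library.

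The gonadal sheath innexins dominated the family. *inx-8* (WBGene00002130, WBcel235 chromosome IV, 11673816 to 11675635, plus strand) had 4101, 5465 and 4299 TPM in antimycin A replicates 1 to 3, against 2344, 3761 and 3498 TPM in EtOH replicates 1 to 3. Its rank among all genes was 16 to 18 in the antimycin A libraries and 21 to 34 in the EtOH libraries. The groups did not overlap: the lowest antimycin A library was above the highest EtOH library.

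*inx-9* (WBGene00002131, chromosome IV, 11676354 to 11678497, plus strand) lies downstream of *inx-8* on the same strand, with 718 bases and no other gene between them. It had 795, 1051 and 570.3 TPM in antimycin A, against 415, 579 and 464 TPM in EtOH. Antimycin A replicate 3 was just below EtOH replicate 2, so the groups overlapped. *inx-8* exceeded *inx-9* by 5.16- to 7.54-fold in each of the 6 libraries, with the highest ratio in replicate 3 of either group. How reads that match both of these related genes were assigned is not given in the sources used here, so the ratio is uncertain to that extent.

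Together *inx-8* and *inx-9* made up 94.2% ± 1.09 of all innexin TPM in antimycin A and 90.9% ± 2.40 in EtOH (SD, n = 3 each; 25 innexin genes). Their sum was 4895, 6516 and 4869.8 TPM in antimycin A and 2759, 4339.6 and 3962 TPM in EtOH, or 0.487% to 0.652% and 0.276% to 0.434% of a library. The other markers of the sheath were far lower: the transcription factor gene *lim-7* had 17.2 to 34.1 TPM in antimycin A and 15.2 to 29.4 TPM in EtOH, and the homeobox gene *ceh-18* 3.20 to 6.48 TPM and 2.48 to 5.40 TPM.

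**Figure D1:**
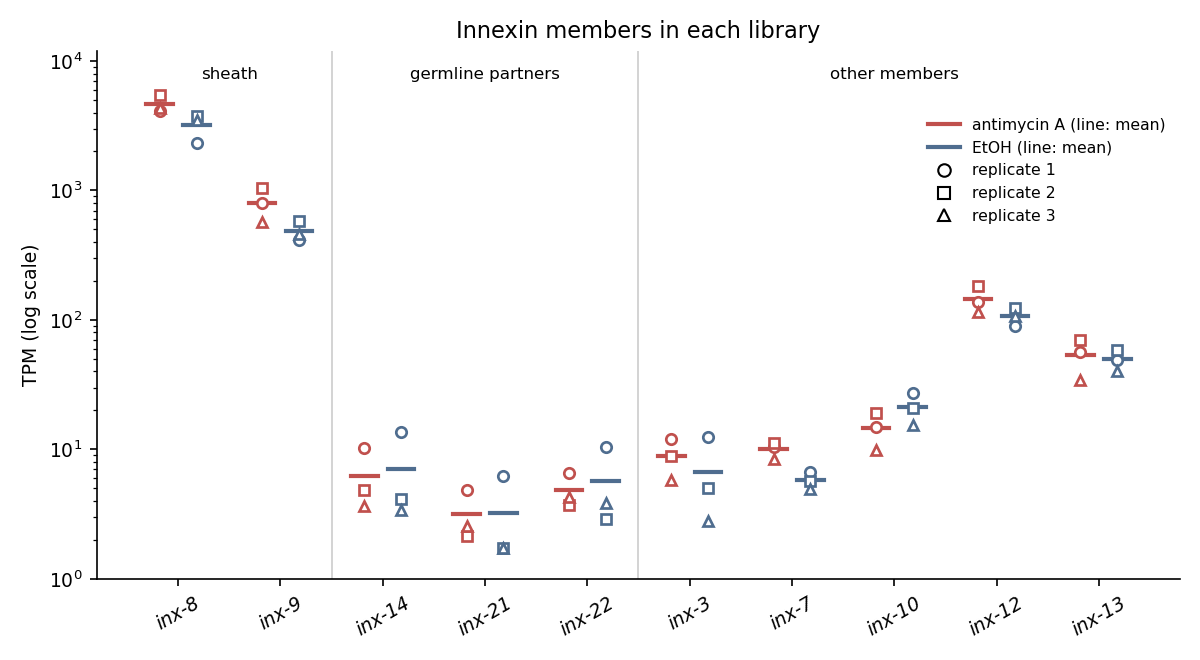
TPM of each innexin member (log scale) in the antimycin A libraries (red, left of each gene) and the EtOH libraries (blue, right), with the group mean as a line and a symbol for each replicate number. *inx-8* and *inx-9* stand above all other members in every library, and the germline partners lie between 1.72 and 13.5 TPM.

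The germline partners were among the lowest members. *inx-14* (WBGene00002136, chromosome I, 7350312 to 7352235, minus strand), the subunit common to both kinds of germline hemichannel, had 10.2, 4.83 and 3.63 TPM in antimycin A, against 13.5, 4.12 and 3.39 TPM in EtOH. *inx-22* (WBGene00002144, chromosome I, 3608395 to 3612301, plus strand) had 6.57, 3.70 and 4.26 TPM in antimycin A, against 10.4, 2.92 and 3.86 TPM in EtOH. *inx-21* (WBGene00002143, chromosome I, 3611909 to 3618317, plus strand) had 4.90, 2.14 and 2.55 TPM in antimycin A, against 6.27, 1.72 and 1.74 TPM in EtOH. For all 3 genes the 2 groups overlapped, and the libraries of replicate 1 were the highest of either group. *inx-21* and *inx-22* overlap by 393 bases on the same strand, and *inx-14* overlaps *kbrl-1* by 75 bases on the opposite strand. Reads in these stretches may have gone to either gene, so the separate values of *inx-21* and *inx-22* are uncertain. *kbrl-1* was itself highest in the libraries of replicate 1, at 34.1 TPM in antimycin A and 37.9 TPM in EtOH, and its part in the level of *inx-14* was not tested.

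Within a library, the summed sheath innexins exceeded the summed germline partners 226-, 611- and 466-fold in antimycin A and 91.4-, 496- and 441-fold in EtOH. On the log2 scale this ratio averaged 8.65 ± 0.74 in antimycin A and 8.08 ± 1.36 in EtOH (SD, n = 3 each), a difference of 0.56, smaller than either SD. These SDs include spread between replicates that same-numbered libraries share, so they do not measure the error of a difference within pairs. The ratio was higher in antimycin A in each same-numbered pair, and it was lowest in replicate 1 of either group. For pairs 1 to 3 the log2 ratio was 7.82, 9.25 and 8.87 in antimycin A, against 6.51, 8.95 and 8.78 in EtOH. Pair 1 thus differed most. The germline partners summed to 21.7, 10.7 and 10.4 TPM in antimycin A and to 30.2, 8.76 and 8.98 TPM in EtOH. Every library is a precipitate of ribosomes tagged under the *tbh-1* promoter, which is known from the sheath, and none holds RNA before precipitation. The ratio thus does not give relative expression in the gonad, and the part of the precipitation in it was not tested.

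Markers of germ cells and oocytes also stood highest in replicate 1, as did several marker lists of other cell types. The 14 genes of that list, all above the filter, summed to 691, 362 and 311 TPM in antimycin A and to 922, 312 and 289.8 TPM in EtOH, with 0 of 14 called by limma (0 at an unadjusted p below 0.05). Among all tested genes 20.7% were called, and 30.7% had an unadjusted p below 0.05. With replicate number added to the fit as a block, which compares libraries within pairs, limma called 1 higher and 1 lower, against 29.6% and 13% of all genes. The same fit after the libraries were rescaled by median-of-ratios factors called 0 higher and 6 lower, against 2240 and 2363 of 11060 genes. Their level thus also stood highest in replicate 1 of either group, and its part in the values of the germline innexins was not tested. This was not particular to germ cells. Gonadal sheath, spermatheca, neuron, muscle, pharynx, intestine, hypodermis and excretory canal lists also had their highest sums in replicate 1 of either group. Muscle markers, for example, summed to 1133, 870 and 663 TPM in antimycin A and to 1172, 806 and 776 TPM in EtOH. The lists of sperm markers and of octopamine and tyramine cells were not highest in replicate 1 of either group. The sheath markers *lim-7* and *ceh-18* summed to 40.6, 28.6 and 20.4 TPM in antimycin A and to 34.8, 18.8 and 19.3 TPM in EtOH. The sheath innexin *inx-8*, in contrast, was lowest in replicate 1 of either group, at 4101 TPM in antimycin A and 2344 TPM in EtOH. In such precipitates, differences in the number of cells of a type, in RNA per cell and in RNA carried through cannot be told apart. Of 7 sperm markers, *spe-9* and *spe-38* were below 1 TPM in every library and the whole list summed to 13.8 to 22.9 TPM in antimycin A and 11.9 to 22.3 TPM in EtOH.

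**Figure D2:**
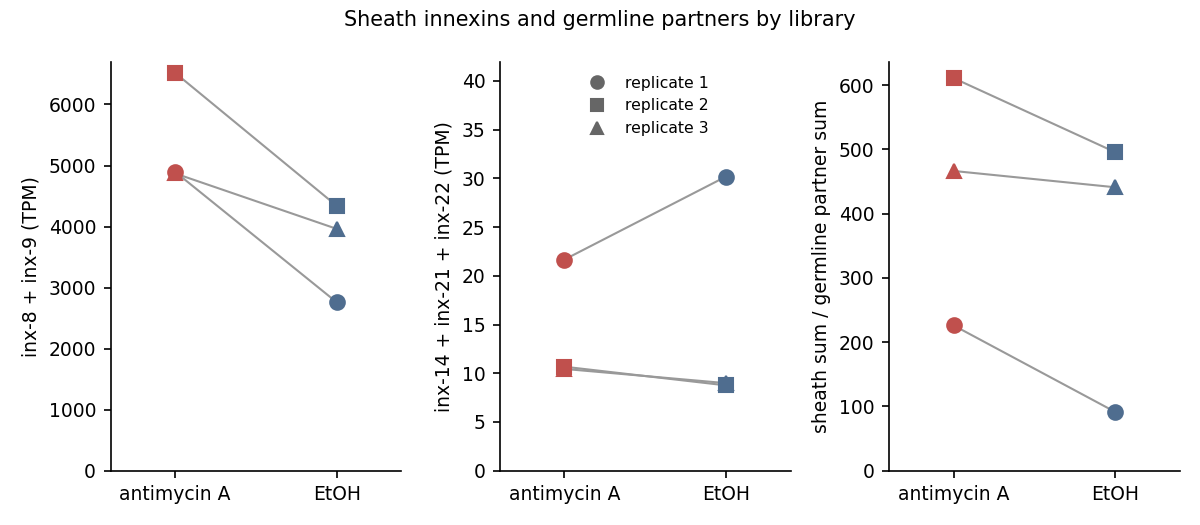
Summed TPM of *inx-8* and *inx-9* (left), summed TPM of *inx-14*, *inx-21* and *inx-22* (middle) and the ratio of these sums (right), in antimycin A and in EtOH, with lines joining libraries of the same replicate number. The sheath sum is higher in antimycin A in all 3 pairs, whereas the germline sum is lower in antimycin A in pair 1 and slightly higher in pairs 2 and 3.

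Of the remaining members, *inx-12* and *inx-13* stood between the sheath and germline groups. Both are known from the excretory canal and are required in early larvae. *inx-12* (WBGene00002134, chromosome I, 3755457 to 3759077, minus strand) had 138, 184 and 115 TPM in antimycin A, against 89.4, 123 and 107 TPM in EtOH. *inx-13* (WBGene00002135, chromosome I, 3748523 to 3753958, minus strand), its neighbour on the same strand at a distance of 1498 bases, had 56.3, 69.4 and 34.2 TPM in antimycin A, against 49.3, 59.1 and 40.2 TPM in EtOH. The groups overlapped for both genes. Replicate 2 was the highest library of either group for both, and replicate 3 was the lowest for *inx-13* in either group. *inx-12* exceeded *inx-13* by 1.82- to 3.35-fold in the 6 libraries. Of 4 excretory canal markers, limma called 0 (0 at an unadjusted p below 0.05), and 2 were called lower with the block or after median-of-ratios scaling or quantile normalization. With the block these were the proton pump gene *vha-8* (limma adjusted p = 1.49e-04), lower in antimycin A in 3 of 3 pairs, and the aquaporin gene *aqp-8* (limma adjusted p = 0.0376), lower in 2 of 3. Over all genes 13% were called lower with the block, 1231 of 11060 after median-of-ratios scaling and 1398 of 11099 after quantile normalization. The list summed to 69.2 to 154 TPM in antimycin A and 124 to 270.5 TPM in EtOH, overlapping between groups but lower in antimycin A in each of the 3 pairs, and its part in the values of *inx-12* and *inx-13* was not tested.

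*inx-10*, *inx-7* and *inx-3* were low. *inx-10* (WBGene00002132, chromosome V, 9204703 to 9207467, minus strand) had 14.9, 19.2 and 9.83 TPM in antimycin A, against 27.3, 20.8 and 15.6 TPM in EtOH. *inx-7* (WBGene00002129, chromosome IV, 5943981 to 5946754, minus strand) had 10.4, 11.1 and 8.39 TPM in antimycin A, against 6.70, 5.68 and 4.94 TPM in EtOH. *inx-3* (WBGene00002125, chromosome X, 5996156 to 5998243, plus strand), which is needed in embryonic morphogenesis, had 11.9, 8.96 and 5.84 TPM in antimycin A, against 12.4, 5.07 and 2.80 TPM in EtOH. Of these genes *inx-7* was higher in every antimycin A library than in any EtOH library, and the groups of *inx-10* and *inx-3* overlapped.

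By mean over the 6 libraries the order of levels was *inx-8*, *inx-9*, *inx-12*, *inx-13*, *inx-10*, *inx-7*, *inx-3*, *inx-14*, *inx-22* and *inx-21*. The ranges of neighbours in this order did not overlap from *inx-8* down to *inx-10*. From *inx-10* on, every neighbouring pair had overlapping ranges. *inx-10* was nevertheless above *inx-7*, and *inx-22* above *inx-21*, in 6 of 6 libraries, while *inx-7*, *inx-3*, *inx-14* and *inx-22* changed places between libraries and could not be ordered.

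None of the 10 members passed the test of antimycin A against EtOH with group as the only term. With replicate number as a block, which takes in the pairing of the libraries, 4 of 10 were called higher and 1 lower. The shares of all tested genes in that fit were 29.6% and 13%, and the calls depended on the scaling, as given below. In limma on log2(TPM + 1), with group as the only term and Benjamini-Hochberg adjustment over 11099 genes, 0 of 10 members were called higher or lower at an adjusted p below 0.05, where 20.7% of all tested genes were called (14.2% higher and 6.47% lower). At an unadjusted p below 0.05, 3 of the 10 members passed, against 30.7% of all genes, which is close to the background. The groups did not overlap for 2 of 10 members, both higher in antimycin A, against 23.1% of all genes in that direction and 11.6% in the other. Within the same-numbered pairs, 4 of 10 members were higher in antimycin A in all 3 pairs and 1 of 10 was lower in all 3, against 43.2% and 20.1% of all genes. The median log2 fold change of the members was 0.26 and that of all tested genes was 0.21. Over all genes the calls numbered 1579 higher and 718 lower, and 1350 higher and 1231 lower after median-of-ratios scaling. The authors' deposited table gives a q-value below 0.05 to 1 member, *inx-10*, and to 24% of the tested genes.

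The sheath genes were nearest to the threshold among the members. *inx-9* averaged 805 TPM ± 241 in antimycin A and 486 TPM ± 84.2 in EtOH (SD, n = 3 each; log2 fold change 0.70 ± 0.25 SE, 95% interval 0.14 to 1.25, limma adjusted p = 0.0787). *inx-8* averaged 4622 TPM ± 737 in antimycin A and 3201 TPM ± 753 in EtOH (0.55 ± 0.24 SE, interval 0.02 to 1.08, limma adjusted p = 0.149). Both were higher in antimycin A in each of the 3 pairs. When the fit took the replicate number as a block, both passed (limma adjusted p = 7.51e-04 for *inx-9* and 0.0206 for *inx-8*). In that fit 4 of 10 members were called higher, against 29.6% of all genes, and 1 of 10 lower, against 13%.

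These calls depended on the scaling. With the block after median-of-ratios scaling, which moves the median of all tested genes to -0.05, *inx-9* stood at 0.39 (limma adjusted p = 0.1003) and *inx-8* at 0.24 (limma adjusted p = 0.469), and 0 of 10 members were called higher. Relative to the median gene, *inx-9* was 0.49 higher without that scaling and 0.43 higher with it, and *inx-8* 0.34 and 0.28 higher. After quantile normalization *inx-9* (1.16, limma adjusted p = 0.00398) and *inx-8* (0.72, limma adjusted p = 0.0394) passed without the block. Without antimycin A replicate 3, *inx-9* alone of the members passed (0.92, limma adjusted p = 0.0222). *tbh-1*, which drives the tag, stood at 0.29 ± 0.24 SE (limma adjusted p = 0.502), and *inx-8* exceeded it 1.90-, 2.04- and 2.95-fold in antimycin A and 1.47-, 2.18- and 2.08-fold in EtOH.

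The germline partners gave differences near 0 with wide intervals. The log2 fold change was -0.04 ± 0.52 SE for *inx-14* (95% interval -1.19 to 1.12), 0.09 ± 0.45 SE for *inx-21* (-0.92 to 1.10) and -0.07 ± 0.44 SE for *inx-22* (-1.06 to 0.92), with limma adjusted p values of 0.982, 0.942 and 0.957. Intervals of this width do not show that the 3 genes stayed level. All 3 were lower in antimycin A in pair 1 and higher in pairs 2 and 3. With both libraries of replicate 1 left out, the fold changes were 0.13 for *inx-14*, 0.29 for *inx-21* and 0.19 for *inx-22*, all short of the threshold (limma adjusted p 0.535 to 0.801). After median-of-ratios scaling the values were -0.29 for *inx-14*, -0.11 for *inx-21* and -0.31 for *inx-22*, so the sign of *inx-21* changed and those of the other two genes did not. With the block the fold changes were the same and the SE was smaller, at 0.23 for *inx-14*, 0.25 for *inx-21* and 0.24 for *inx-22*. In that fit none of the 3 passed either (limma adjusted p 0.804 to 0.923).

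Among the other members, *inx-7* averaged 9.98 TPM ± 1.41 in antimycin A and 5.78 TPM ± 0.886 in EtOH (0.70 ± 0.31 SE, interval 0.01 to 1.38, limma adjusted p = 0.156, blocked 0.00993). It was higher in 3 of 3 pairs, and with the block after median-of-ratios scaling it no longer passed (0.42, limma adjusted p = 0.0770). *inx-7* overlaps *pfkb-1.2* by 18 bases on the opposite strand, and *pfkb-1.2* had 32.6 to 43.6 TPM in antimycin A, against 18.6 to 28.3 TPM in EtOH (limma adjusted p = 0.0857). Its part in the value of *inx-7* was not tested. *inx-12* averaged 145 TPM ± 35.5 in antimycin A and 106 TPM ± 16.6 in EtOH (0.43 ± 0.24 SE, limma adjusted p = 0.258, blocked 0.0246), and it fell short again with the block after median-of-ratios scaling.

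*inx-10* was the only member lower in all 3 pairs. It averaged 14.6 TPM ± 4.67 in antimycin A and 21.2 TPM ± 5.87 in EtOH (-0.52 ± 0.33 SE, interval -1.25 to 0.21, limma adjusted p = 0.346). It passed with the block (limma adjusted p = 0.0299), after median-of-ratios scaling without the block (-0.81, limma adjusted p = 0.0366) and with both together (limma adjusted p = 0.00105). The authors' deposited table gives it a log2 ratio of -0.54 with q = 0.0176. *inx-10* overlaps the aspartyl protease gene *asp-2* by 32 bases on the opposite strand. *asp-2* had 423, 368 and 152 TPM in antimycin A, against 844, 889.7 and 814 TPM in EtOH, and fell (-1.56 ± 0.34 SE, limma adjusted p = 0.00865), a call lost without a filter on low values (0.0658) and without both libraries of replicate 2 (0.0651). Without a stated strand setting, reads of the overlap cannot be told apart, and the part of *asp-2* in the value of *inx-10* was not tested. *inx-3* (0.50 ± 0.48 SE, interval -0.56 to 1.57, limma adjusted p = 0.576) and *inx-13* (0.06 ± 0.29 SE, interval -0.59 to 0.72, limma adjusted p = 0.937) did not pass, with the block either (0.0801 and 0.791).

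**Figure D3:**
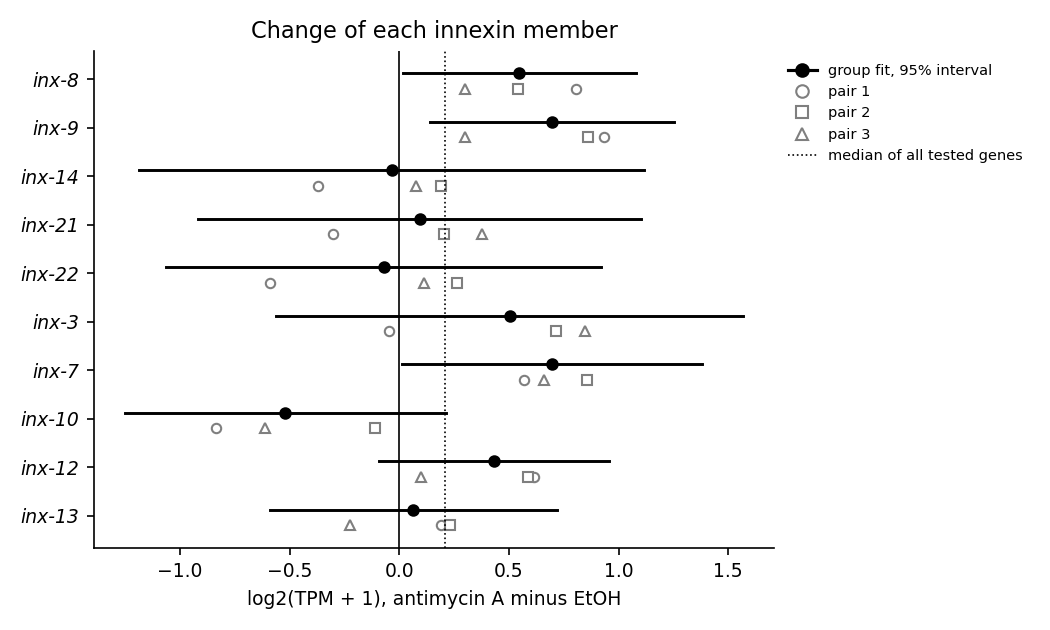
Difference of log2(TPM + 1), antimycin A minus EtOH, for each member: the group fit with its 95% interval (black) and the same-numbered pairs (grey symbols), with the median of all tested genes as a dotted line at 0.21. *inx-7*, *inx-8*, *inx-9* and *inx-12* lie above 0 in all 3 pairs, *inx-10* lies below 0 in all 3, and the germline partners straddle 0.

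The members differed in what their spread over the 6 libraries went with. The sum of squares of log2(TPM + 1) was split into treatment group (1 degree of freedom), replicate number (2) and the rest (2), as a description without a test. Replicate number held 96.6% for *inx-14*, 92.4% for *inx-21*, 86.4% for *inx-22* and 89.7% for *inx-13*, and treatment held under 1% for each of these genes. For *inx-7* treatment held 83.4%, and for *inx-8* and *inx-9* it held 55.0% and 58.9%. The medians over all tested genes were 29.7% for treatment and 49.6% for replicate number.

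**Figure D4:**
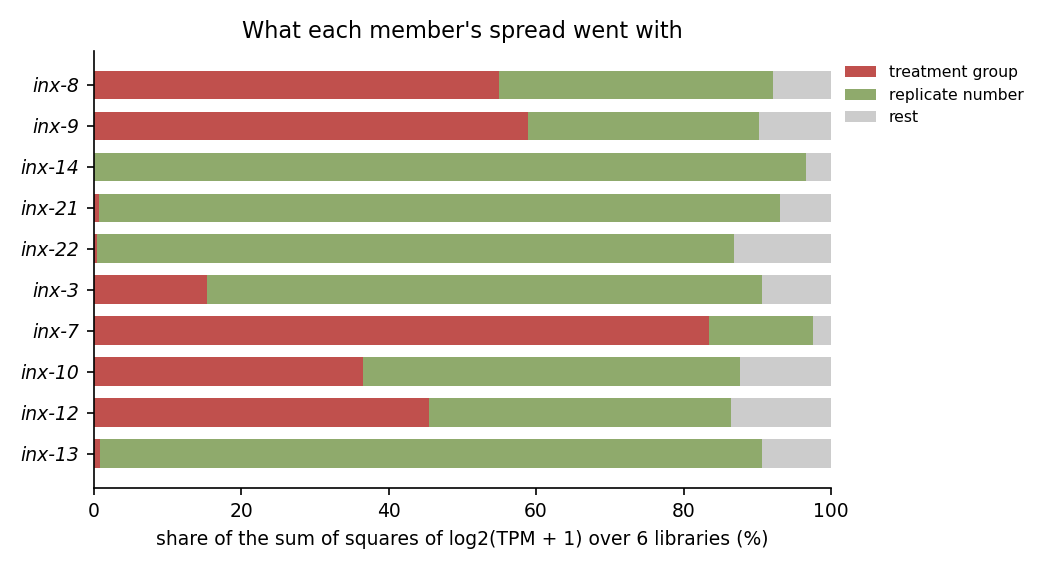
Share of each member's sum of squares over the 6 libraries that goes with treatment group, replicate number and the rest (%). The germline partners and *inx-13* are almost wholly in the replicate share, and *inx-7* has the highest treatment share, 83.4%.

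The genes whose log2(TPM + 1) profiles over the 6 libraries were most like that of *inx-8*, by Pearson correlation among tested genes, were *clec-149* (r = 0.996), *F14H12.17* (0.993) and *M79.2* (0.985). *clec-149*, a C-type lectin gene, had 99.5, 128 and 98.5 TPM in antimycin A, against 55.8, 87.6 and 79.5 TPM in EtOH. Among the members *inx-12* (r = 0.906) and *inx-9* (r = 0.865) were closest to *inx-8*. For *inx-22* the most similar genes were *F10E7.11* (r = 0.997), *D2096.12* (0.994) and *nsy-1* (0.994), and among the members *inx-21* (0.967) and *inx-14* (0.917), which share its 6 libraries and, for *inx-21*, an overlap. These correlations come from 6 libraries that share group and replicate structure and are given as a description.

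Of the 15 other innexin genes, 8 passed the filter and 7 were below 1 TPM in every library, among them the neuronal innexin gene *unc-7* and the pharyngeal gene *eat-5*. Of the 8, limma called 3 lower and 0 higher, against 6.47% and 14.2% of all genes, and their median log2 fold change was -0.29. With the block 2 were called higher and 3 lower, against 29.6% and 13% of all genes. *inx-16*, which couples intestinal cells, had 35.7, 30.4 and 15.4 TPM in antimycin A, against 63.5, 76.8 and 51.0 TPM in EtOH, and fell (-1.26 ± 0.33 SE, limma adjusted p = 0.0203). *inx-17* fell to 9.98 TPM ± 4.43 in antimycin A, against 28.4 TPM ± 5.18 in EtOH (-1.49 ± 0.34 SE, limma adjusted p = 0.0113). *inx-15* fell to 14.4 TPM ± 4.86 in antimycin A, against 36.1 TPM ± 4.82 in EtOH (-1.31 ± 0.31 SE, limma adjusted p = 0.0124). All 3 calls were lost without EtOH replicate 2 (limma adjusted p 0.0717 to 0.1004), and those of *inx-16* and *inx-17* also without antimycin A replicate 2 (0.0526 and 0.0554); that of *inx-16* was lost without a filter on low values as well (0.0814). Without both libraries of replicate 2 all 3 were lost (limma adjusted p 0.175 to 0.265), and without both of replicate 3 those of *inx-15* and *inx-17* (0.0611 and 0.0604). Beside them, 5 of 7 intestine markers fell and 1, *ges-1*, rose, and that list summed to 2173 to 5256 TPM in antimycin A and 8892 to 10698 TPM in EtOH; its part in the innexin values was not tested. The intestine markers that fell numbered 2 without antimycin A replicate 2, without EtOH replicate 2 or without a filter on low values. They numbered 3 after quantile normalization or without both libraries of replicate 3, and 1 without both of replicate 2. Over all genes the lower calls in these settings, in the same order, began with 454 of 10525, 410 of 10921 and 613 of 18645. They went on with 1398 of 11099, 372 of 10532 and 162 of 10212, against 718 of 11099 in the reported fit. *ges-1* was not called without antimycin A replicate 1 or 2, EtOH replicate 3 or both libraries of replicate 2 (limma adjusted p 0.0528 to 0.216). *inx-11* had 5.83 to 10.7 TPM in antimycin A and 3.29 to 4.52 TPM in EtOH and did not pass (0.84 ± 0.34 SE, limma adjusted p = 0.122).

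Genes of sheath and oocyte signalling, which act in oocyte maturation and ovulation beside the innexin channels, were read from the same fit. Of 20 such genes, all tested, limma called 1 higher and 0 lower, against 14.2% and 6.47% of all genes, and their median log2 fold change was 0.15, against 0.21 over all tested genes. With the block 3 were called higher and 0 lower, against 29.6% and 13% of all genes. With the block after median-of-ratios scaling 2 were called higher and 4 lower, against 2240 and 2363 of 11060 genes. The gene called was *lfe-2*, for an inositol trisphosphate 3-kinase that acts in spermathecal dilation, at 44.9, 45.7 and 31.6 TPM in antimycin A and 23.8, 20.8 and 18.1 TPM in EtOH (0.92 ± 0.25 SE, limma adjusted p = 0.0281). Its call was lost after median-of-ratios scaling (0.62, limma adjusted p = 0.0747) and without antimycin A replicate 1 or 2 or EtOH replicate 2 or 3 (limma adjusted p 0.1001 to 0.145), and without any 1 of the 3 pairs (0.0530 to 0.432). The EGF receptor gene *let-23* (10.8 to 22.3 TPM in antimycin A and 6.62 to 8.14 TPM in EtOH, limma adjusted p = 0.0677) and the adenylate cyclase gene *acy-4*, which acts in the sheath (4.59 to 8.79 TPM in antimycin A and 3.02 to 4.11 TPM in EtOH, limma adjusted p = 0.166), did not pass, and passed with the block (3.45e-04 and 0.00932). *ipp-5*, an inositol polyphosphate 5-phosphatase gene, stood at 28.2 TPM ± 8.71 in antimycin A and 36.7 TPM ± 9.58 in EtOH (-0.38 ± 0.32 SE, limma adjusted p = 0.502).

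Marker lists of other cell types were read as counts from the same limma fit. Limma called 0 of 2 tested gonadal sheath markers besides the innexins, 0 of 4 sperm markers, 0 of 3 genes of octopamine and tyramine cells, 0 of 5 muscle markers and 0 of 2 pharynx markers, with 0 at an unadjusted p below 0.05 in each of these lists. The shares of all tested genes were 20.7% called and 30.7% at an unadjusted p below 0.05. Of 7 tested neuron markers 0 were called, 2 had an unadjusted p below 0.05, and 2 were called higher with the block, against 29.6% of all genes. Of 4 spermatheca markers 1 was called, the filamin gene *fln-1*, at 21.8 to 90.5 TPM in antimycin A and 10.7 to 22.6 TPM in EtOH (1.74 ± 0.49 SE, limma adjusted p = 0.0290). That call was lost without antimycin A replicate 1 or 2, without EtOH replicate 2 or 3, without a filter on low values, and without both libraries of replicate 1 or of replicate 2 (limma adjusted p 0.0507 to 0.331). With the block 2 of 4 spermatheca markers were called higher and 0 lower, against 29.6% and 13% of all genes. With the block after median-of-ratios scaling 2 were called higher and 2 lower, against 2240 and 2363 of 11060 genes. Of 3 tested hypodermis markers the adult collagen gene *col-19* fell, to 148 to 273 TPM in antimycin A, against 319 to 376 TPM in EtOH (-0.82, limma adjusted p = 0.0347). Its call was lost without antimycin A replicate 2 or 3, EtOH replicate 2 or 3, both libraries of replicate 2 or of replicate 3, or a filter on low values (limma adjusted p 0.0868 to 0.287). The collagen gene *dpy-7* had 3.39 to 7.11 TPM in antimycin A and 0.418 to 0.507 TPM in EtOH; it passed the filter only through the antimycin A libraries, so its call is not counted.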

How the data were processed

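RNA on HA-tagged ribosomes was sequenced in 6 libraries, 3 of antimycin A and 3 of EtOH, grouped by their titles. The authors deposited TPM values per gene, 1 table of all libraries and 3 of same-numbered pairs with identical TPM, besides their own ratio, log2 ratio, p-value and q-value columns, per the file headers. The submitters' processing notes name bcl2fastq 2.20, Trimmomatic 0.36, HISAT2, StringTie 2.1.4, DESeq2 1.28.1 and WBcel235; the strand setting is not given in the sources used here. Genes listed at 1e-04 TPM were set to 0. TPM keep no depth. Columns of other samples numbered 0.

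Genes that reached 1 TPM in 3 or more libraries were fitted with limma 3.58.1 (R 4.3.3, mean-variance trend) on log2(TPM + 1), pseudocount 1, with group as the only term; fold changes on this scale understate low genes. Calls are Benjamini-Hochberg adjusted p below 0.05 over 11099 genes, and the code was tested on simulated data. The design text describes independent experiments with a control and a trained sample each, and the correlation of same-numbered libraries, each taken relative to its group mean over 11099 genes, was 0.68, 0.31 and 0.59 for replicates 1 to 3, so the numbers pair the samples. The blocked fit leaves few residual degrees of freedom, so limma takes much of a gene's variance from other genes.

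The members and lists were chosen with earlier results of these data known. Named genes are the members, the smallest p values of the lists of other innexins and of sheath and oocyte signalling (4 each), *tbh-1*, *rpl-22*, the 3 genes most like *inx-8* and *inx-22*, marker lists as counts and sums, and genes that overlap a member; marker genes named singly were chosen after their values were seen. Alternatives were other pseudocounts, filters, scalings, array weights, the replicate block and left-out libraries; the block after rescaling was chosen after seeing the data. limma's default estimate of the array weights stopped short of its convergence tolerance, so weights estimated gene by gene were added after seeing its counts. Summaries used Python 3.11.15, pandas 2.3.3 and numpy 2.4.6, figures matplotlib 3.10.9.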

Additional observations from a re-analysis of the deposited data

How the results depend on the processing

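Each member's log2 fold change was recomputed under 12 other settings and with each of 6 libraries or 3 pairs left out. Of these 210 values, 158 kept their sign and side of the threshold, 25 passed where the reported fit did not, and 27 changed sign, all of them for *inx-13*, *inx-14*, *inx-21* or *inx-22* and none past the threshold. Members called higher numbered 2 after quantile normalization (also with the block), 1 with ribosomal RNA genes removed, 5 with array weights estimated either way, 4 with the replicate block and 0 to 1 with libraries or pairs left out. Members called lower numbered 1 in each of 5 settings: the replicate block alone, median-of-ratios scaling or quantile normalization, and either of these scalings with the block. Sign changes with group as the only term were -0.11 and -0.18 for *inx-21* and -0.24 and -0.26 for *inx-13* after median-of-ratios scaling and quantile normalization, with the same values under the block, and 0.21 for *inx-14* and 0.23 for *inx-22* with array weights, and 0.30 and 0.26 with weights estimated gene by gene. With libraries or pairs left out, the ranges were -0.41 to 0.50 for *inx-14*, -0.18 to 0.56 for *inx-21*, -0.38 to 0.39 for *inx-22* and -0.15 to 0.35 for *inx-13*. Over all genes, calls in the higher and lower directions numbered 1579 and 718 as reported, 5698 and 1798 with array weights, 4094 and 1219 with weights estimated gene by gene, and 3282 and 1442 with the replicate block. They numbered 1350 and 1231 with median-of-ratios scaling, 1423 and 1398 with quantile normalization, and 2240 and 2363 or 2226 and 2578 when the block was added to these. With libraries or pairs left out the counts were 391 to 2059 higher and 162 to 705 lower. The mean log2 ratio of *inx-8* alone to *inx-22* alone was 9.93 in antimycin A and 9.32 in EtOH. That is another quantity than the ratio of the sheath and germline sums, which was 8.65 and 8.08. The cause of the changes in calls and signs between settings was not tested. Depth is unknown for TPM, so the precision of the low germline innexins rests on 3 libraries per group alone; where nothing more is stated than independent experiments, p values measure the spread between these libraries.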
